A study of Homo sapiens with 12 samples.

Results

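The abundant circular RNAs of PC3 cells were the entries with a circular RNA identifier (hsa_circ) and at least 200 summed counts over 12 RNA-seq libraries. They numbered 20776 of the 44096 circular entries in a table of 221796 entries. They were chosen by their measured counts, without regard to treatment group. Entries near the threshold could therefore pass it mainly through the groups where they were high, and their differences partly follow from that choice. PC3 is a human prostate cancer cell line, and the libraries form 4 groups of 3, each labelled wild type. AgNPs cells received silver nanoparticles, DOC cells received DOC, COM cells received both, and BLANK cells received PBS, the reference for each treatment. DOC appears in the labels as an abbreviation only, and no dose, exposure time or batch is stated. Nor do the labels say that replicates were separate cultures, so the p-values below measure the spread between these libraries, which may be technical. The comparisons ask how circular RNAs differed after either agent and after one was added to the other. They also ask where both together gave more or less than the sum of their separate log2 fold changes.

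Circular RNAs form when a splice donor joins an acceptor upstream of it, an event called back-splicing. The closed loop has no free ends, so exonucleases that degrade linear RNA do not attack it, and circular RNAs usually outlive the linear transcripts of the same gene. Their levels are known to depend on RNA-binding proteins that bring the flanking introns together, on the splicing machinery, and on endonucleases that open the loop. A read shows a circle when it crosses the back-splice junction, because the rest of the circle has the same sequence as the linear RNA. Whether the authors counted only junction reads is not given in the sources used here. The libraries were made with an mRNA kit, per the labels, and whether reads of linear RNA entered the circular counts was not tested. Each circular entry carried its own identifier as its gene identifier (44096 of 44096), and 0 shared one with a linear entry. A circular RNA could therefore not be set against the linear RNA of its own gene, and positions and sequences of the circles are not analysed here.

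The circular counts had a floor that decides how low values are read. Among the counts of all 44096 circular entries in the 12 libraries, 0 values lay between 1 and 9, and the lowest value above 0 was 10. Linear counts started at 1. A circular RNA listed at 0 in a library may thus have had up to 9 counts there. Of the 20776 abundant circular RNAs, 17753 were listed above 0 in every library and 3023 (14.6%) were at 0 in at least 1. The number at 0 was 317, 327 and 393 in AgNPs replicates 1 to 3, 3, 12 and 16 in DOC, 723, 1109 and 1139 in COM, and 27, 6 and 3 in BLANK. It was highest in the shallowest libraries. Summed linear counts were 13049868 to 13362290 in AgNPs, 18603100 to 19421873 in DOC, 10996446 to 11069928 in COM and 22573481 to 22769479 in BLANK. Circular RNAs listed at 0 in all 3 libraries of a group numbered 2 for AgNPs, 0 for DOC, 56 for COM and 3 for BLANK. Results are given separately below for circular RNAs with and without a listed 0, a split made after the floor was seen.

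**Figure D1:**
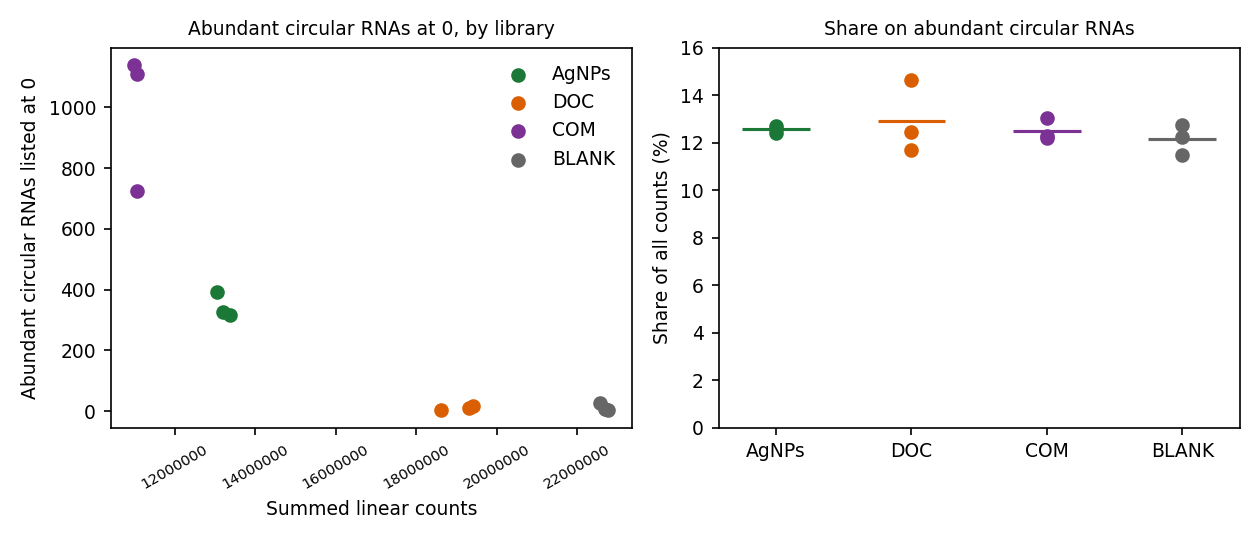
Left, the number of the 20776 abundant circular RNAs listed at 0 (y axis) against the summed linear counts of the library (x axis), 1 point per library, coloured by group. Right, the share of all counts on abundant circular RNAs in percent, 1 point per library with the group mean as a line. The 3 COM libraries have the fewest counts and the most zeros (723 to 1139), and DOC replicate 1 has the highest share (14.7%).

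The abundant circular RNAs spanned 3 orders of magnitude. Their summed count had a median of 493 and a 90th percentile of 2121, and the highest was 213222. The 750 with a sum of at least 5000 held 46.4% of the counts, and the top 1% held 27.9%. At the threshold, hsa_circ_0000970, hsa_circ_0005089 and hsa_circ_0005418 had sums of 200 and were kept, while hsa_circ_0134004, hsa_circ_0134477 and hsa_circ_0138408 had 199 and were not. Libraries of BLANK and DOC were deeper, so their counts weighed more in that sum. A set of 180 entries had the same 12 counts as another abundant circular RNA, so the number of distinct signals is below 20776.

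Circular RNAs as a whole took shares of the summed counts that differed between groups by less than the spread of the libraries. All circular entries held 13.0 ± 0.175% of the counts in AgNPs, 13.8 ± 1.74% in DOC, 12.9 ± 0.521% in COM and 13.0 ± 0.76% in BLANK (SD, n = 3 each). Two-sided exact permutation tests against BLANK gave p = 1.0 for AgNPs, 0.6 for DOC and 0.9 for COM, where 0.1 is the smallest p that 3 against 3 libraries allow. The abundant ones alone held 12.6 ± 0.155% in AgNPs, 12.9 ± 1.54% in DOC, 12.5 ± 0.464% in COM and 12.2 ± 0.646% in BLANK. The spread in DOC came from replicate 1, with 15.8% on circular entries against 13.3% and 12.4% in replicates 2 and 3. Counts of circular RNAs without a 0 scattered between DOC replicates with a chi-square of 5.73 per degree of freedom when linear totals set the scale and 2.73 when circular totals did. The same values were 1.48 and 1.45 in AgNPs, 1.63 and 1.51 in COM, and 2.82 and 2.27 in BLANK. DOC replicate 1 therefore stands apart, and the counts of DOC comparisons are also given without it. Of the authors' implied totals, which exceed the summed counts, circular entries held 9.14 ± 0.0277% in AgNPs, 9.35 ± 0.058% in DOC, 9.03 ± 0.0277% in COM and 9.40 ± 0.0246% in BLANK. On that scale the exact permutation test against BLANK gave p = 0.1 for AgNPs and for COM, the smallest it can give, and 0.3 for DOC.

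The cells carried the markers of their line in all 12 libraries. The keratins KRT8 and KRT18 lay at 148 to 196 and 194 to 246 CPM (counts scaled to the effective linear library size), and vimentin, VIM, at 748 to 877 CPM. The leukocyte gene PTPRC was at 0 in 8 libraries, while the lysosomal CD68, which leukocytes share with other cells, had 37.4 to 54.3 CPM. Of 5 fibroblast genes, DCN was at 0 in 10 libraries and LUM in 7, and COL1A1, COL3A1 and PDGFRB were above 0 in all 12. Their sum ran from 16.3 to 19.6 CPM in AgNPs, from 17.0 to 26.8 in DOC and from 15.6 to 16.9 in BLANK, while all COM libraries lay above the AgNPs ones and reached 24.3, and its part in the results was not tested. The nuclear-retained RNAs MALAT1 and NEAT1 moved with treatment. Their summed level ran from 10900 to 11100 CPM in AgNPs, from 8550 to 8880 in DOC, from 13700 to 14100 in COM and from 7500 to 7710 in BLANK. Whether a shift between nuclear and cytoplasmic RNA takes part in the circular RNA differences was not tested. In bulk RNA of this kind, fewer cells of a type and less RNA per cell cannot be told apart.

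Differences were tested with edgeR's quasi-likelihood test in 1 fit over 51283 features, the 20776 abundant circular RNAs, 10521 less abundant ones and 19986 linear genes. Library size and scaling factors came from linear genes, so a change is relative to linear RNA. Features with a p below 0.05 after Benjamini-Hochberg adjustment across the whole fit were called, and log2 fold changes are given with their standard errors. AgNPs against BLANK called 323 abundant circular RNAs higher and 207 lower, where 4.65% of all features were called higher and 5.48% lower. The circular shares, 1.55% and 0.996%, lay below that background, and the linear genes had 10.3% and 11.9%. DOC against BLANK called 112 higher and 22 lower, against backgrounds of 1.38% and 1.95%. COM against BLANK called 1046 higher and 1026 lower, against backgrounds of 9.35% and 12.5%. In each of these comparisons a smaller share of circular RNAs than of linear genes passed the test. The abundant circular RNAs had a median level of 2.44 CPM in BLANK, and the part of count level in these shares was not tested.

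**Figure D2:**
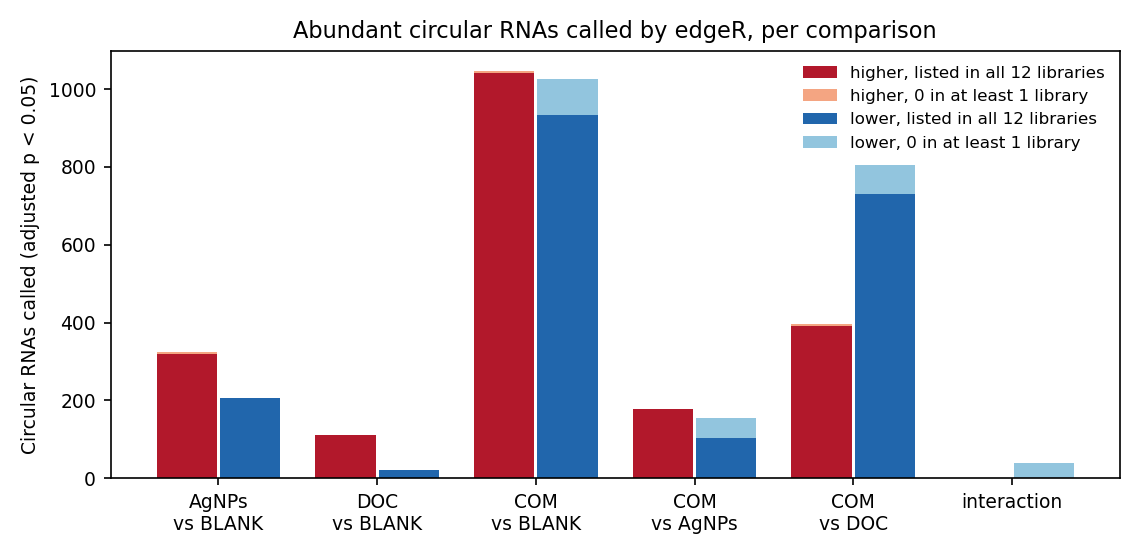
Number of abundant circular RNAs called at an adjusted p below 0.05 (y axis) in each of 6 comparisons (x axis), higher in red and lower in blue, with the paler parts for those at 0 in at least 1 library. COM against BLANK calls the most (1046 higher, 1026 lower), and the interaction calls 40, all of them with a 0 in some library.

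With silver nanoparticles the counts of a small set of circular entries were higher by large factors. Among those listed in every library, 318 rose and 205 fell with AgNPs. Of these, 83 rose at least 2-fold and 6 fell at least 2-fold, while the median log2 fold change over all 17753 was -0.02. The largest rises among those listed in every library came from 8 of 9 circular RNAs with identifiers between hsa_circ_0039459 and hsa_circ_0039471. These 9 are all the abundant circular RNAs in that stretch of numbers, and all 9 rose with AgNPs and with COM. The stretch was picked out after its values were seen.

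hsa_circ_0039459 had the highest counts of the stretch. Its counts were 11092, 10740 and 10130 in AgNPs, 1248, 1211 and 1003 in DOC, 9460, 9291 and 9801 in COM, and 1251, 1102 and 1213 in BLANK. AgNPs and COM libraries stood far above all DOC and BLANK libraries, although they had fewer reads. On the CPM scale it averaged 807 ± 29.3 in AgNPs and 52.9 ± 3.81 in BLANK (SD, n = 3 each), a log2 fold change of 3.93 ± 0.08 (edgeR adjusted p = 5.3e-12). With COM the log2 fold change was 4.03 ± 0.08 (edgeR adjusted p = 2.6e-12), and with DOC it was 0.18 ± 0.08 (edgeR adjusted p = 0.33). COM against AgNPs gave 0.10 ± 0.07 (edgeR adjusted p = 0.49).

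The other members of the stretch followed the same order of groups at lower levels. hsa_circ_0039460 had 6642, 6039 and 5794 counts in AgNPs, 897, 758 and 625 in DOC, 5876, 5521 and 5419 in COM, and 718, 664 and 831 in BLANK. For the 8 circular RNAs of the stretch without a 0, log2 fold changes ranged from 3.64 ± 0.13 (hsa_circ_0039461) to 3.98 ± 0.15 (hsa_circ_0039463) with AgNPs and from 3.80 ± 0.13 (hsa_circ_0039461) to 4.10 ± 0.18 (hsa_circ_0039467) with COM. With DOC they ranged from 0.18 (hsa_circ_0039459) to 0.76 (hsa_circ_0039467), and none passed the test. The ninth, hsa_circ_0039468, had 69, 57 and 53 counts in AgNPs, 12, 0 and 0 in DOC, 78, 50 and 56 in COM, and 0 in all 3 BLANK libraries. With each BLANK 0 read as 9 counts it was at least 11.3-fold higher in AgNPs and at least 13.9-fold higher in COM. Whether these 9 entries count reads in common was not tested.

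Linear genes with the same response were few. Of 13807 linear genes with a symbol and an average of at least 1 on the log2 CPM scale, 3 lay within 0.5 of hsa_circ_0039459 in all 3 log2 fold changes against BLANK. They were MT2A and MT1X, metallothioneins that bind metal ions, and AKR1B10, an aldo-keto reductase. For hsa_circ_0039467 of the same stretch, only LOC107984118 lay within 0.5, and neither metallothionein did. For hsa_circ_0039461, 7 genes did, with MT2A and MT1X nearest. The rest of the stretch without a 0 had the same 3 genes as hsa_circ_0039459. MT2A averaged 1325 ± 48.0 CPM in AgNPs and 95.9 ± 9.40 CPM in BLANK (SD, n = 3 each). Its log2 fold changes were 3.79 ± 0.06 with AgNPs, -0.02 ± 0.06 with DOC and 3.88 ± 0.06 with COM, and those of MT1X were 3.87 ± 0.06, -0.06 ± 0.07 and 4.0 ± 0.06. This is a likeness of pattern over 12 libraries, chosen after the values were seen, and the files do not link any linear gene to these circles.

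**Figure D3:**
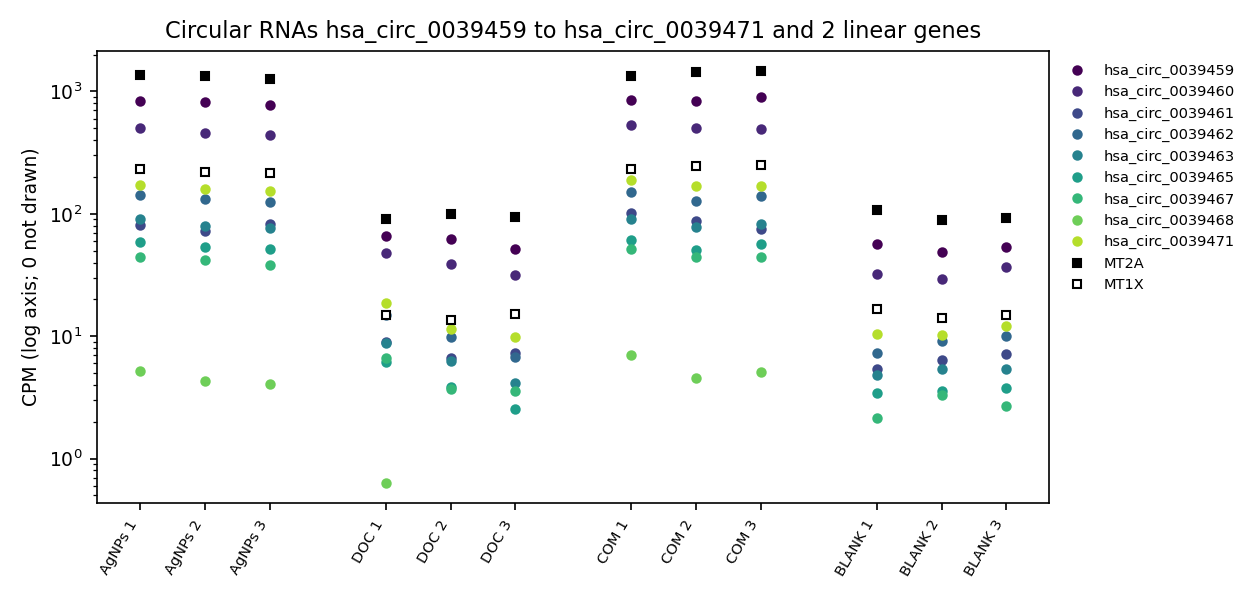
CPM on a log axis (y axis) in each of the 12 libraries (x axis) for the 9 abundant circular RNAs between hsa_circ_0039459 and hsa_circ_0039471 (coloured circles) and the linear genes MT2A (filled squares) and MT1X (open squares); values of 0 are not drawn. AgNPs and COM libraries stand above DOC and BLANK libraries for every entry drawn.

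Other stretches of neighbouring identifiers also rose together with AgNPs. Stretches were built by chaining called circular RNAs with near numbers, so both ends of each are called ones by construction. Of the 323 called higher with AgNPs, 181 had an abundant circular RNA next in number, and for 90 such a neighbour was called higher too. For the 207 called lower these values were 110 and 17. All 6 abundant circular RNAs from hsa_circ_0070971 to hsa_circ_0070980 rose, by log2 fold changes of 1.52 to 2.27 with AgNPs and 1.94 to 2.75 with COM. hsa_circ_0070972 had 219, 188 and 164 counts in AgNPs, 75, 95 and 75 in DOC, 194, 167 and 193 in COM, and 71, 84 and 69 in BLANK. All 5 from hsa_circ_0075319 to hsa_circ_0075323 rose too, by 1.04 to 1.56 with AgNPs and 1.53 to 1.73 with COM. The most abundant of them, hsa_circ_0075321, had 587, 496 and 463 counts in AgNPs, 330, 330 and 304 in DOC, 573, 555 and 530 in COM, and 333, 300 and 383 in BLANK. In both stretches the AgNPs and COM libraries had more counts than every BLANK library in these examples despite lower depth. None of the 11 passed the test with DOC alone. From hsa_circ_0096157 to hsa_circ_0096169, 7 of 9 rose with AgNPs by 0.39 to 0.96.

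Neighbouring identifiers behaved alike in general. Between abundant circular RNAs whose numbers differ by 1 (5052 pairs without a 0), the median absolute difference of the AgNPs log2 fold change was 0.152. It was 0.194 for numbers 2 to 5 apart, 0.226 for 6 to 20 apart and 0.257 for pairs 1000 places apart in the list. With COM the same 4 values were 0.189, 0.248, 0.299 and 0.351, and with DOC 0.162, 0.19, 0.204 and 0.221. Counts of calls are therefore not counts of independent circles.

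Single circular RNAs with large rises lay outside these stretches. hsa_circ_0011133 had 46, 55 and 47 counts in AgNPs, 15, 13 and 15 in DOC, 61, 84 and 70 in COM, and 0, 10 and 10 in BLANK. Its log2 fold change was 3.62 with AgNPs (edgeR adjusted p = 7.7e-05) and 4.42 ± 0.39 with COM (edgeR adjusted p = 3.2e-06), values that depend on the 0. hsa_circ_0069094 and hsa_circ_0017548 were at 0 in all 3 BLANK libraries. They had 37, 26 and 34 and 24, 37 and 20 counts in AgNPs, which made them at least 6.12-fold and 5.11-fold higher there. In COM, with 54, 36 and 49 and 31, 28 and 38 counts, they were at least 10.5-fold and 7.32-fold higher.

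Falls with AgNPs were smaller. hsa_circ_0081390 had 61, 45 and 63 counts in AgNPs, 204, 215 and 203 in DOC, 60, 48 and 37 in COM, and 175, 239 and 235 in BLANK. AgNPs and BLANK libraries did not overlap, and its log2 fold change with AgNPs was -1.17 ± 0.17 (edgeR adjusted p = 0.00046). hsa_circ_0081391, its neighbour in number, had 133, 151 and 159 counts in AgNPs against 448, 545 and 502 in BLANK, a log2 fold change of -0.98 ± 0.09 (edgeR adjusted p = 1.8e-05). hsa_circ_0003442, hsa_circ_0037533, hsa_circ_0007051, hsa_circ_0051708 and hsa_circ_0119651 fell by 1.01 to 1.13 on the log2 scale. A further pair was at 0 in all 3 AgNPs libraries. hsa_circ_0023377 had 28, 32 and 37 counts in BLANK and was at least 2.11-fold lower in AgNPs, and hsa_circ_0046660, with 19, 24 and 38 in BLANK, was at least 1.76-fold lower. Their sums of 248 and 212 were reached through the other groups. The count of 530 calls with AgNPs fell to between 320 and 350 when AgNPs replicate 1, 2 or 3 or BLANK replicate 2 or 3 was left out.

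DOC changed few circular RNAs, and its count rests on the scale chosen. The 112 higher and 22 lower calls were all listed in every library, and 8 of the higher ones passed 2-fold. With library size and factors from the circular entries in place of linear genes, 10 were higher and 9 lower, and with the totals implied by the authors' circular expression values 9 were higher and 7 lower. The share of calls that were higher was thus 83.6%, 52.6% or 56.2%. Without DOC replicate 1, 105 were higher and 178 lower on the linear scale, and without DOC replicate 2 the total was 41. Without BLANK replicate 1, 2 or 3, or AgNPs replicate 1, 2 or 3, it lay between 47 and 85. Neither the size nor the direction of the DOC response as a whole was therefore stable.

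The largest rises with DOC by fold were at low counts. hsa_circ_0021155 had 46, 50 and 43 counts in DOC against 24, 25 and 18 in BLANK, a log2 fold change of 1.27 ± 0.20 (edgeR adjusted p = 0.0048). hsa_circ_0056197 had 49, 31 and 48 counts in DOC against 18, 22 and 19 in BLANK, a log2 fold change of 1.33 ± 0.26 (edgeR adjusted p = 0.017). The DOC libraries lay above the BLANK libraries for both, at fewer than 60 counts per library. hsa_circ_0034516, hsa_circ_0080772, hsa_circ_0129732, hsa_circ_0044231, hsa_circ_0003977 and hsa_circ_0083396 rose by 1.01 to 1.13 on the log2 scale. These 6 calls were lost under 10 (hsa_circ_0044231) to 20 (hsa_circ_0083396) of 26 alternative settings, that of hsa_circ_0056197 under 10 and that of hsa_circ_0021155 under 3.

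The falls with DOC were smaller in fold. hsa_circ_0048249 had 1292, 1304 and 1273 counts in AgNPs, 1546, 1329 and 1308 in DOC, 711, 767 and 708 in COM, and 2240, 2239 and 2308 in BLANK. Its log2 fold change was -0.48 ± 0.06 with DOC (edgeR adjusted p = 0.0018), -0.61 with COM (edgeR adjusted p = 1.5e-05) and -0.04 with AgNPs (edgeR adjusted p = 0.87). DOC and COM libraries lay below every BLANK library, also after scaling to linear RNA. hsa_circ_0075248 had 309, 276 and 244 counts in DOC, 122, 108 and 120 in COM, and 489, 441 and 501 in BLANK. It fell by 0.56 ± 0.09 on the log2 scale with DOC (edgeR adjusted p = 0.0076). Among the other falls by rule, hsa_circ_0041230, hsa_circ_0089575, hsa_circ_0109911, hsa_circ_0129134, hsa_circ_0001591 and hsa_circ_0038936 ranged from -0.73 to -0.46. The calls of hsa_circ_0129134, hsa_circ_0041230 and hsa_circ_0038936 were lost under 22, 20 and 18 of 26 alternative settings, and those of the other 3 under 3 to 9.

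The combination called the most circular RNAs. Among those listed in every library, 1041 rose and 934 fell with COM against BLANK, 240 and 56 of them at least 2-fold. Another 92 that were at 0 in some library fell and 5 rose. With circular totals as the scale, 880 were higher and 1413 lower, and with the authors' implied totals 910 and 1266, so the share of higher calls was 50.5%, 38.4% or 41.8%. No side of the response is therefore called the larger one.

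Rises with COM included the stretches already named and further ones. From hsa_circ_0096138 to hsa_circ_0096172, 19 of 23 rose, by log2 fold changes of 0.40 to 1.35. hsa_circ_0096162, within it, had 1163, 1056 and 1022 counts in AgNPs, 1671, 1762 and 1675 in DOC, 1375, 1266 and 1340 in COM, and 1221, 1301 and 1405 in BLANK. Scaled to linear RNA, it rose with every treatment, by 0.49 ± 0.05 with AgNPs, 0.60 ± 0.05 with DOC and 1.05 ± 0.05 with COM (edgeR adjusted p = 4.2e-05, 0.00014 and 1.6e-08). All 5 abundant circular RNAs from hsa_circ_0034510 to hsa_circ_0034521 rose with COM, by 1.34 to 1.66. All 5 from hsa_circ_0034528 to hsa_circ_0034541 did so by 0.83 to 1.51, and 14 of 17 from hsa_circ_0072930 to hsa_circ_0072950 by 0.32 to 1.02. hsa_circ_0051786 had 114, 122 and 101 counts in AgNPs, 49, 95 and 72 in DOC, 180, 215 and 222 in COM, and 59, 39 and 45 in BLANK. Its log2 fold change with COM was 3.13 against BLANK (edgeR adjusted p = 1.4e-07) and 1.13 ± 0.18 against AgNPs (edgeR adjusted p = 0.0021). The linear gene nearest to it in pattern was CDKN1A, a cyclin-dependent kinase inhibitor, at 2.08 ± 0.08 with AgNPs, 0.54 ± 0.09 with DOC and 2.97 ± 0.08 with COM.

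Falls with COM also came in stretches. From hsa_circ_0001583 to hsa_circ_0001594, 7 of 9 fell, by -1.58 to -0.74 on the log2 scale. hsa_circ_0001592 had 2137, 1993 and 1853 counts in AgNPs, 2994, 2516 and 2513 in DOC, 1055, 1015 and 1040 in COM, and 4110, 3809 and 4058 in BLANK. Its log2 fold change was -0.23 ± 0.07 with AgNPs (edgeR adjusted p = 0.062), -0.35 ± 0.07 with DOC (edgeR adjusted p = 0.018) and -0.92 ± 0.08 with COM (edgeR adjusted p = 1.6e-06). COM libraries had the fewest counts, and after scaling to linear RNA they averaged 93.9 CPM against 178 CPM in BLANK. The largest fall without a 0 was that of hsa_circ_0136894, with 10, 11 and 14 counts in COM against 85, 101 and 67 in BLANK, a log2 fold change of -1.82 ± 0.27 (edgeR adjusted p = 0.00026). The falls that came first by the fitted value were 8 circular RNAs at 0 in all 3 COM libraries, hsa_circ_0081394, hsa_circ_0046370, hsa_circ_0083136, hsa_circ_0053882, hsa_circ_0081117, hsa_circ_0048375, hsa_circ_0084418 and hsa_circ_0088317. hsa_circ_0081394 had 42, 35 and 51 counts in BLANK and was at least 2.33-fold lower in COM, and the other 7 were at least 2.04-fold to 2.27-fold lower. All 8 had sums of 223 to 263, reached through the other groups.

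Of the 10 most abundant circular RNAs, 4 passed the test with AgNPs, 1 with DOC and 4 with COM. hsa_circ_0089762 had the highest sum, with 13166, 12461 and 11614 counts in AgNPs, 21166, 25325 and 24007 in DOC, 14391, 14752 and 14353 in COM, and 23309, 19145 and 19533 in BLANK. Relative to linear RNA its log2 fold change was 0.03 ± 0.07 with AgNPs (edgeR adjusted p = 0.93), 0.40 ± 0.07 with DOC (edgeR adjusted p = 0.010) and 0.51 ± 0.07 with COM (edgeR adjusted p = 0.00017). hsa_circ_0022417 rose with AgNPs (1.03 ± 0.11) and COM (1.25 ± 0.11), with 8564, 8101 and 7415 counts in AgNPs, 8303, 7692 and 7466 in COM, and 6546, 6277 and 7227 in BLANK. hsa_circ_0029349 did so too, by 0.81 ± 0.08 and 0.88 ± 0.08. Of the other 7 by highest sum, hsa_circ_0025202 passed the test with AgNPs (0.14 ± 0.03) and COM (0.11 ± 0.03) and hsa_circ_0076986 with AgNPs (0.12 ± 0.03). hsa_circ_0006940, hsa_circ_0026828, hsa_circ_0077006, hsa_circ_0051886 and hsa_circ_0026829 passed with no treatment, and their log2 fold changes ranged from -0.19 (hsa_circ_0006940, COM) to 0.18 (hsa_circ_0026829, COM).

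Adding DOC to AgNPs, COM against AgNPs, called 179 abundant circular RNAs higher and 155 lower, with backgrounds of 2.76% and 4.09% of all features. Without a 0 these were 177 and 104. With circular totals 62 were higher and 134 lower, and with the authors' totals 69 and 106, so the majority changed sides (53.6%, 31.6% and 39.4% of calls higher). The number of calls, 334, was 182 without AgNPs replicate 2 and 180 without AgNPs replicate 3. hsa_circ_0075900 had 77, 49 and 75 counts in COM against 47, 30 and 34 in AgNPs, a log2 fold change of 1.11 ± 0.21 (edgeR adjusted p = 0.0068). hsa_circ_0081380, hsa_circ_0110535 and hsa_circ_0003987 were higher in COM by 1.19 to 1.35 on the log2 scale. In that order, their calls were lost under 15, 6 and 7 of 26 alternative settings. hsa_circ_0119098, hsa_circ_0110012, hsa_circ_0131726 and hsa_circ_0129875 were at 0 in all 3 COM libraries and at least 1.86-fold to 2.26-fold lower there than in AgNPs. hsa_circ_0136894, the strongest fall without a 0, had 10, 11 and 14 counts in COM against 43, 46 and 33 in AgNPs, a log2 fold change of -1.54 ± 0.29 (edgeR adjusted p = 0.0062).

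Adding AgNPs to DOC, COM against DOC, called 396 higher and 804 lower, with backgrounds of 6.22% and 9.28%. Without a 0 these were 391 and 731. Without DOC replicate 1, 539 were higher and 411 lower, so which side was larger rested on that library. The stretch from hsa_circ_0039459 led again, with log2 fold changes of 3.85 ± 0.08 for hsa_circ_0039459 and 3.75 ± 0.17 for hsa_circ_0039465. hsa_circ_0020489 had 24, 22 and 26 counts in COM against 153, 92 and 91 in DOC, a log2 fold change of -1.42 ± 0.24 (edgeR adjusted p = 0.0011). hsa_circ_0079054, hsa_circ_0085003, hsa_circ_0110012 and hsa_circ_0004603 were at 0 in all 3 COM libraries and at least 2.24-fold to 2.59-fold lower there than in DOC.

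The AgNPs response was also looked up in COM against DOC, which shares no library with AgNPs against BLANK. Both sets of calls came from 1 fit with a spread estimated over all 12 libraries, so the look-up is not independent. Fitted from the AgNPs and BLANK libraries only, AgNPs against BLANK called 605 abundant circular RNAs in place of 530. Fitted likewise from their own libraries, COM against DOC called 610 in place of 1200 and DOC against BLANK 25 in place of 134. COM against AgNPs called 493 in place of 334. Of the 318 circular RNAs without a 0 that rose with AgNPs alone, 304 were also higher in COM than in DOC and 206 were called there. They are 206 of the 391 called higher in COM against DOC, where 2.2% of all 17753 were called higher. Of the 205 that fell with AgNPs alone, 201 were lower in COM than in DOC and 110 were called, out of 731. Their median log2 fold change was 0.72 with AgNPs alone and 0.57 with AgNPs on top of DOC for the rises, and -0.52 and -0.41 for the falls. Over all 17753, 65.9% had the same sign in both. For DOC, 106 of the 112 rises and 21 of the 22 falls kept their direction in COM against AgNPs, where 39 (of 177 called higher) and 12 (of 104 called lower) were called. The share with the same sign over all 17753 was 60.6%. Without DOC replicate 1, 402 of 415 rises and 297 of 308 falls with AgNPs kept their direction in COM against DOC, with 267 and 108 called there. For DOC, 96 of 105 rises and 167 of 178 falls then kept theirs in COM against AgNPs, with 48 and 68 called.

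**Figure D4:**
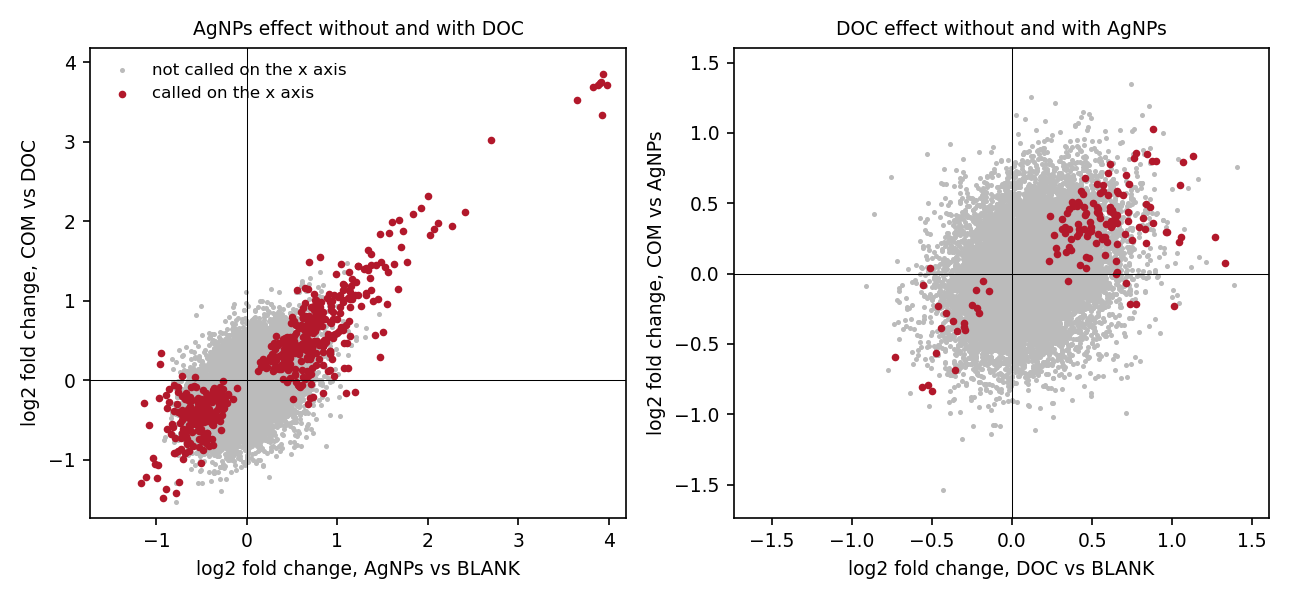
Log2 fold changes of the 17753 abundant circular RNAs listed in all 12 libraries. Left, COM against DOC (y axis) over AgNPs against BLANK (x axis); right, COM against AgNPs (y axis) over DOC against BLANK (x axis); the axes of each panel share no library, red points were called on the x axis. On the left the stretch from hsa_circ_0039459 lies at the upper right, and 304 of 318 called rises are above 0 on the y axis.

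Departure from the sum of both agents' log2 fold changes was tested as an interaction. It is the AgNPs log2 fold change in the presence of DOC minus that without DOC. This test asks about departure from multiplied folds and not from added levels. It called 1 abundant circular RNA higher and 39 lower, against backgrounds of 0.0955% and 0.138%. Each of these 40 had a whole group at 0, AgNPs for the 1 higher and COM for the 39 lower, and their highest count in any library was 56. Among the 17753 without a 0, edgeR called 0, DESeq2 called 1 and limma 0. Of these 17753, 763 had an unadjusted edgeR p below 0.05, fewer than tests with no interaction would give on average. All 40 calls were lost when each 0 was read as 9, when circular totals or the authors' totals set the scale, and when AgNPs replicate 1 or 2 or BLANK replicate 2 or 3 was left out. Without AgNPs replicate 3, BLANK replicate 1, or DOC replicate 1, 2 or 3, the number was 2, 3, 7, 1 or 8. Leaving out COM replicate 1, 2 or 3 raised the number to 179, 96 or 114.

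Genes that make or clear circular RNAs were measured on linear counts, with 40 such genes listed and all 40 tested. With AgNPs 2 were higher, 24 were lower and 14 did not pass, with a median log2 fold change of -0.12 where all linear genes had 0.01. With DOC 0 were higher, 9 were lower and 31 did not pass (median -0.07, all linear genes 0.01), and without DOC replicate 1 there were 1 higher and 14 lower. COM gave 2 higher, 28 lower and 10 not passed (median -0.22, all linear genes 0.03). Of all linear genes, 11.9% were lower with AgNPs, 4.89% with DOC and 21.4% with COM. The listed genes were not matched to other linear genes by count level, and its part in these shares was not tested. With circular totals as the scale the list had 1 higher and 2 lower with AgNPs, 0 and 0 with DOC, and 2 and 18 with COM, and no gene called on the linear scale changed sign under any setting tried.

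Decreases covered factors of back-splicing and the core splicing machinery. HNRNPM (chromosome 19, 8444975 to 8489114, RefSeq on GRCh38), a splicing regulator, averaged 270 ± 1.21 CPM in AgNPs, 305 ± 19.95 in DOC, 228 ± 4.40 in COM and 345 ± 14.0 in BLANK (SD, n = 3 each). It fell by 0.35 ± 0.04, 0.18 ± 0.04 and 0.60 ± 0.04 on the log2 scale with AgNPs, DOC and COM. DDX39A (chromosome 19, 14408798 to 14419383), a helicase that takes part in the nuclear export of circular RNAs, fell by 0.33, 0.15 and 0.56. PRPF8, a core spliceosome protein, fell by 0.19, 0.12 and 0.32, and the splicing factor SRSF1 by 0.20, 0.11 and 0.34 on the same scale. SF3B1, a component of the U2 particle, was lower with AgNPs (-0.23 ± 0.02) and COM (-0.26 ± 0.02). So was ILF2, a nuclear RNA-associated factor, at -0.25 ± 0.02 and -0.31 ± 0.02. U2AF2, which binds the polypyrimidine tract, was lower with AgNPs, DOC and COM (-0.24, -0.11 and -0.35), as was the RNA helicase DHX9, which unwinds paired repeats that bring splice sites together (-0.21, -0.10 and -0.33).

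Some listed genes were higher or did not pass. ESRP1, an epithelial splicing regulator, had 98, 80 and 112 counts in AgNPs, 50, 41 and 57 in DOC, 118, 120 and 96 in COM, and 62, 67 and 59 in BLANK. It rose by 1.39 ± 0.16 with AgNPs and 1.85 ± 0.15 with COM on the log2 scale (edgeR adjusted p = 6.3e-05 and 1.7e-06). YTHDC1 (chromosome 4, 68310387 to 68350090), a reader of N6-methyladenosine, rose by 0.13 ± 0.03 with AgNPs and 0.38 ± 0.03 with COM. METTL3, the catalytic subunit of the enzyme that writes that mark, fell by 0.28, 0.23 and 0.58 with AgNPs, DOC and COM. QKI and MBNL1, RNA-binding proteins that promote back-splicing, did not pass in any of the 3, with log2 fold changes from -0.01 to 0.09 (QKI) and from -0.05 to -0.00 (MBNL1).

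**Figure D5:**
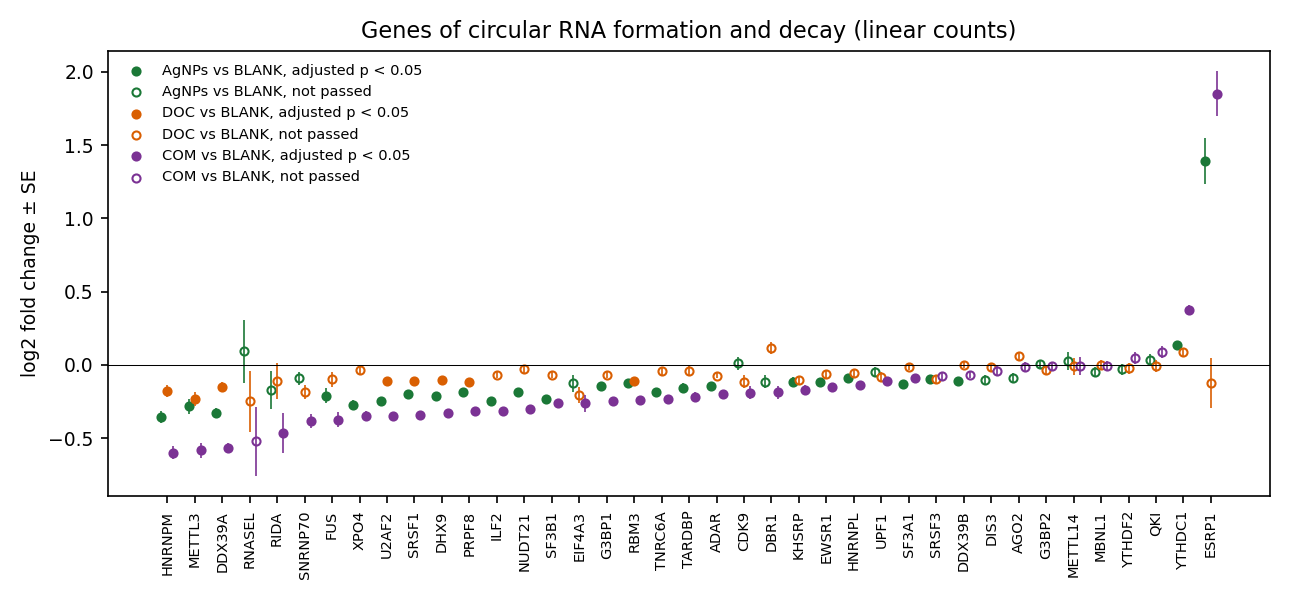
Log2 fold change with its standard error (y axis) for the linear genes of circular RNA formation and decay that are reported here (x axis, ordered by the COM value), with AgNPs in green, DOC in orange and COM in purple, each against BLANK. Filled points passed an adjusted p of 0.05; most genes lie below 0 with COM, and ESRP1 stands apart at 1.39 with AgNPs and 1.85 with COM.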

How the data were processed

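RNA was extracted with TRIzol and libraries were made with an mRNA kit from BGI, per the labels. The submitters' processing notes name HISAT2, Bowtie2 2.2.5, RSEM and GRCh38, with no roles. The authors deposited expected counts per entry, used here as counts, and expression values without a stated unit. For circular entries these are counts scaled to an implied total. The 10 group-mean columns were not used. Linear counts were summed per gene and rounded. Members and lists were chosen with earlier results of these data known. Counts were fitted over 12 libraries with edgeR 4.0.16 in R 4.3.3 (TMM from linear genes, filterByExpr, robust quasi-likelihood), after a test on simulated data. Bounds read a 0 as 9 counts. Named circular RNAs are the 10 with the highest sums and, per comparison, the leading called ones each way by fold change, up to 8 against BLANK and 4 otherwise, whose replicates do not overlap. The 6 formation genes with the smallest adjusted p per treatment are named, apart from 1 that is not reported here. Circular RNAs in stretches, those called without a 0 outside that rule, hsa_circ_0051786, MT2A, MT1X, AKR1B10, CDKN1A, HNRNPM, YTHDC1, QKI, MBNL1 and ESRP1 were named after their values were seen. Alternatives used DESeq2 1.42.0, limma 3.58.1, other scales, filters, thinning and each library left out. Deviations of same-numbered libraries had correlations of -0.127 to 0.068. Pairs with different numbers were not compared, so these values cannot settle whether the numbers pair the libraries.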

Additional observations from a re-analysis of the deposited data

Results flagged for a closer look

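A test of the difference between the AgNPs effect with and without DOC picked out 40 abundant circular RNAs. For these the fitted log2 values depend on how a listed 0 is treated and are no bounds. hsa_circ_0023377 (6.96) had 16, 12 and 13 counts in COM, 0 in all 3 AgNPs libraries, 50, 23 and 37 in DOC and 28, 32 and 37 in BLANK. hsa_circ_0110012 (-8.18) was at 0 in all 3 COM libraries, with 27, 17 and 22 counts in AgNPs, 45, 39 and 27 in DOC and 19, 41 and 39 in BLANK. hsa_circ_0131726 (-8.13) was at 0 in COM too, with 15, 27 and 23 counts in AgNPs, 44, 22 and 33 in DOC and 26, 25 and 39 in BLANK. hsa_circ_0085003 (-7.95) and hsa_circ_0048432 (-7.87) were likewise at 0 in COM, with 16 to 22 and 18 to 21 counts in AgNPs. The edgeR adjusted p lay between 0.024 and 0.0325 for these 5. COM had the shallowest libraries, and with each 0 read as 9 counts, none of the abundant circular RNAs passed. Groups of 3 libraries are too small for a formal test of single outlying libraries, and DOC replicate 1 was set apart by its values only.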

How the results depend on the processing

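Of 113 named differences, 68 kept their call under all 26 settings that could be run, 45 lost it under at least 1, and 0 changed direction. Counts of called circular RNAs that moved by over 1.5 times, or a share beyond its SD, were these. With circular entries fitted alone, the counts were 146 for AgNPs against BLANK (530 as reported), 0 for DOC against BLANK (134), 923 for COM against BLANK (2072), 57 for COM against AgNPs (334), 375 for COM against DOC (1200) and 0 for the interaction (40). For DOC against BLANK other settings gave 281 with DESeq2, 80 with limma-trend, 73 without a filter, 25 from both groups only, 82 after thinning, 19 with circular totals and 16 with the authors' totals. Leaving out circular RNAs with a 0 gave 268. For COM against AgNPs they gave 531 with limma-trend, 222 without a filter, 202 with each 0 read as 9, 196 with circular totals and 175 with the authors' totals. COM against DOC gave 610 from both groups only. The interaction gave 11 with limma-trend, 10 after thinning, 1 after thinning with counts under 10 then set to 0, and 0 with each 0 read as 9, with circular or the authors' totals, or without circular RNAs that have a 0. The replicate number as a block gave 81 for DOC against BLANK and 0 for the interaction, and changed no other count by over 1.5 times. The labels do not say whether the numbers pair the libraries. Leaving out each library in turn gave 320 to 730 for AgNPs against BLANK, 41 to 283 for DOC against BLANK, 1404 to 2580 for COM against BLANK, 180 to 498 for COM against AgNPs, 813 to 1408 for COM against DOC and 0 to 179 for the interaction. It moved the circular share to 13.0 to 13.1% in AgNPs, 12.8 to 14.5% in DOC, 12.6 to 13.0% in COM and 12.7 to 13.4% in BLANK. Relative to counts on RefSeq entries the circular share was 17.5% in AgNPs, 18.9% in DOC, 17.6% in COM and 17.3% in BLANK. The causes of these moves were not tested. The settings that use authors' totals, set 0 to 9, leave out circular RNAs with a 0, or reset thinned counts were chosen after seeing the data. The planned tests of circular against linear RNA of the same gene, with their alternatives, were not run, since no circular entry shares a gene identifier with a linear one. Depth limits the low end: circular entries listed at 0 may have had up to 9 counts, and such zeros were most frequent in COM and AgNPs libraries. Bounds on folds allow for that floor only and include no margin for counting error.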

Other observations

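Some abundant circular RNAs had even counts in every library. In 377 of the 20776 all 12 counts were even numbers, where 108 had 11 even counts and 394 had 10. Of the 17753 without a 0, 274 had 12 even counts. hsa_circ_0001583 is an example, with 166, 182 and 116 counts in AgNPs, 374, 224 and 184 in DOC, 84, 58 and 74 in COM, and 302, 286 and 420 in BLANK. How such counts arise was not tested.

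Less abundant circular RNAs, below the sum of 200, showed more falls with the shallower groups. Of the 10521 tested, 11 were higher and 217 lower with AgNPs, 1 and 0 with DOC, and 19 and 1076 with COM, and their median log2 fold changes were -0.56, 0.10 and -1.05. All of those called had at least a 2-fold fitted change, and a listed 0 may stand for up to 9 counts in these entries too.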
